A study of Mus musculus with 2 samples.

Results

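The 10 genes described here, Chil3, Chil1, Ear1, Ear2, Marco, Msr1, Mrc1, Siglecf, Itgax and Plet1, code for secreted chitinase-like proteins, secreted ribonucleases, scavenger receptors and surface proteins of the alveolar macrophage, the resident phagocyte of the air spaces of the lung. They were chosen by name, and all 10 were found among the 43346 genes of each deposited gene table, together with 28 annotated transcripts. The RNA was polyadenylated RNA of whole lung from a single C57BL/6J mouse, an adult female of 10 weeks from that inbred line, with no labelled treatment or altered allele. It was sequenced as 2 libraries, which the labels call technical replicates 1 and 2 of biological replicate 1. Replicate 2 was made later, and both libraries came from a kit for lipid-rich tissue. Nothing in the labels says whether the libraries share an RNA extraction. The only comparison is therefore replicate 2 against replicate 1, with 1 library on each side and no test, and every SD is over n = 2 libraries of the same animal. The lung was not sorted, so macrophage genes were read in a mixture of all lung cells, and a lower level cannot be told apart as fewer cells or less RNA per cell.

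Alveolar macrophages live on the surface of the alveoli, where they take up inhaled particles, microbes and spent surfactant. Their development depends on the cytokine GM-CSF, made in large part by the alveolar epithelium, and on the transcription factor PPARγ. In mice they are recognised by high surface Siglec-F and CD11c, the product of Itgax. Chitinase-like proteins keep the fold of a chitinase but do not cleave chitin. Class A scavenger receptors carry a collagen-like stalk and bind negatively charged ligands such as oxidised lipoproteins and bacterial surfaces. The mannose receptor takes up glycoproteins through its lectin domains.

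Close relatives share sequence in this set, which matters because reads that match several genes were divided between them by the authors. Ear1 and Ear2, which code for small cationic ribonucleases of the eosinophil-associated family, lie on chromosome 14 of GRCm38 at 43818765-43875517 on the minus strand and 44102654-44103534 on the plus strand. The coding parts of Ear1-201 and Ear2-201 were 95.1% identical, with 20 differing bases, 3 gap columns and a longest identical run of 96 bases. The stretches below are coding bases 51 to 170 of both, within exon 2, at chr14:43819240-43819359 (minus strand) and chr14:44102937-44103056 (plus strand). They show how few bases tell the genes apart, with the 8 differing bases in capitals.
Ear1-201: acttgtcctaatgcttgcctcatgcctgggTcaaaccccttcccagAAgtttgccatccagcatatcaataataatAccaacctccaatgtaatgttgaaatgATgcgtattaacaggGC
Ear2-201: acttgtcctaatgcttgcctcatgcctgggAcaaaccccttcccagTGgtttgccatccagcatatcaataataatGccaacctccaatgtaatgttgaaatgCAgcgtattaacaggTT

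The likeness of the Ear genes extended upstream. The 250 bases before the start sites, from RefSeq on GRCm38.p6, lie at chr14:43819640-43819889 (minus strand) for Ear1 and chr14:44102404-44102653 (plus strand) for Ear2. The Ear1 window lies before Ear1-201, whereas the transcript Ear1-202 is annotated to start at chr14:43875517. Over 248 aligned bases 2 differed, an identity of 99.2%, and those bases are in capitals.
Ear1 promoter: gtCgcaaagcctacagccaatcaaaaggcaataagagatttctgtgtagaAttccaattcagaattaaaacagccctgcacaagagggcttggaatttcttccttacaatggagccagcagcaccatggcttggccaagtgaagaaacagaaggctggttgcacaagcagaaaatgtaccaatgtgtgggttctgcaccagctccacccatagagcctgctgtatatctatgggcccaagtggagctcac
Ear2 promoter: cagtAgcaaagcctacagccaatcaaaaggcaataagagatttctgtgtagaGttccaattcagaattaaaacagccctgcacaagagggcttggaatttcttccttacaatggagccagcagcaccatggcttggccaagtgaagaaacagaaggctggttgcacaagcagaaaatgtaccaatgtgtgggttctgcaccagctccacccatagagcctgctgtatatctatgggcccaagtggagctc

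Chil3, which codes for the secreted protein Ym1, has a near copy in Chil4, the gene of Ym2. Their coding parts were 94.4% identical, with 55 differing bases and 12 gap columns, whereas Chil3 and Chil1 shared only 52.0% of aligned coding columns. Coding bases 835 to 954, spliced from exons 8 and 9, lie within chr3:106148883-106149792 and chr3:106202823-106203742, both on the minus strand. The 15 bases that differ there are in capitals, and they show that Chil3 can be told from its copy at many positions.
Chil3-201: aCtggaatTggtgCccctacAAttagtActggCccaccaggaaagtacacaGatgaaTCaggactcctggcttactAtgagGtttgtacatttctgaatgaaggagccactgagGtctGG
Chil4-201: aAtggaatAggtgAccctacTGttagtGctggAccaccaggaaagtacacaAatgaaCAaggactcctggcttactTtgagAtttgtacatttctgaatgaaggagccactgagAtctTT

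Marco and Msr1, the class A scavenger receptors of the set, share a collagen-like repeat, a series of triplets of codons that each begin with glycine. In Marco-201 the longest such run held 81 repeats over 729 coding bases, and in Msr1-202 it held 25 repeats over 225 bases. The first 20 repeats of each run are shown with the glycine codons, which all begin with GG, in capitals. They are spliced coding sequence within chr1:120488202-120492068 (minus strand, coding bases 529 to 708) and chr8:39608131-39619878 (minus strand, coding bases 829 to 1008).
Marco-201: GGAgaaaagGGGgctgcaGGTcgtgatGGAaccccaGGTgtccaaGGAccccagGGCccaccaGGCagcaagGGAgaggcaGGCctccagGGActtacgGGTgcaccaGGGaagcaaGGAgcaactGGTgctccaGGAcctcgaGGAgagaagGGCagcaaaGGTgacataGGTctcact
Msr1-202: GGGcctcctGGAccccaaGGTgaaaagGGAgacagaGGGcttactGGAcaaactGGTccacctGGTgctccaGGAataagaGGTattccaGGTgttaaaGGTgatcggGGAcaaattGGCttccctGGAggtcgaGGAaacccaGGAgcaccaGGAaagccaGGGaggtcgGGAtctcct

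The repeat was rich in G and C in both genes, at 58.7% in Marco and 56.0% in Msr1. The rest of the Marco coding part was nearly as rich, at 53.0%, whereas the rest of the Msr1 coding part held 42.7%. Over the whole transcript the GC content was 54.5% for Marco-201 and 38.4% for Msr1-202.

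All 10 genes were detected in both libraries at or above 1 TPM (an abundance corrected for transcript length and scaled to a fixed total). Chil3 was the most abundant in either library and Chil1 came next in mean level, followed by Ear2, Ear1, Mrc1, Plet1, Siglecf, Marco, Itgax and Msr1. The levels of the set spanned from 2.07 TPM for Msr1 to 1766 TPM for Chil3. Together the genes held 3477 TPM in replicate 1 and 2364 TPM in replicate 2, which is 0.348% and 0.236% of all TPM. Chil3 alone made up 50.8% of the sum in replicate 1 and 39.8% in replicate 2.

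Of the 9 neighbouring pairs in this order, 4 did not overlap over the libraries, namely Chil3 above Chil1, Chil1 above Ear2, Ear2 above Ear1, and Plet1 above Siglecf. The ranges of the other 5 pairs overlapped. Of these, Ear1 exceeded Mrc1 in both libraries, whereas Mrc1 and Plet1, Siglecf and Marco, Marco and Itgax, and Itgax and Msr1 changed places. Spearman's rho between the libraries over the 10 levels was 0.879, given as a description.

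The libraries held 16104442 and 17110882 expected counts, with counts above 0 for 17892 and 19597 genes, and they differed widely. Ratios below are of rounded expected counts scaled by TMM, a factor that corrects for the make-up of a library, and intervals are exact Clopper-Pearson intervals at 95% that cover counting error only. A gene was called apart when this ratio passed 2-fold. Over the 14139 genes with a mean of at least 1 TPM, 39.3% were more than 2-fold higher and 28.2% more than 2-fold lower in replicate 2. Of the 10 genes, 3 were more than 2-fold higher (Chil1, Marco and Itgax), 3 were more than 2-fold lower (Msr1, Mrc1 and Siglecf) and 4 lay within 2-fold. Both shares are near those of all genes. The median log2 ratio was −0.68 over the 10 genes and 0.19 over all genes tested.

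The chitinase-like genes were the most abundant of the set and differed between the libraries in opposite directions. Chil3 (ENSMUSG00000040809.10, chr3:106147554-106167564, minus strand), a product of alternatively activated macrophages that can crystallise in the airways, had 1766 TPM in replicate 1 and 941 TPM in replicate 2, a mean of 1354 ± 584 (SD, n = 2). Its counts were 26858 and 20016, a level 1.71-fold lower in replicate 2 (interval 1.68 to 1.74). Chil3 thus ranked 41st of all genes by TPM in replicate 1 and 127th in replicate 2. Chil1 (ENSMUSG00000064246.6, chr1:134182176-134190181, plus strand) codes for BRP-39, the mouse counterpart of YKL-40, a secreted protein that macrophages, neutrophils and epithelium can make. Its level was 689 TPM in replicate 1 and 929 TPM in replicate 2, a mean of 809 ± 170 (SD, n = 2).

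The counts of Chil1 differed more than its TPM. They were 4896 and 16129, a scaled ratio 2.59-fold higher in replicate 2 (interval 2.50 to 2.67), against a ratio of 1.35 in TPM. The authors' mean transcript length of Chil1, weighted by abundance, was 814 bases in replicate 1 and 1283 bases in replicate 2. Chil3 exceeded Chil1 2.56-fold in TPM in replicate 1 and 1.01-fold in replicate 2, so Chil3 led clearly in replicate 1 and the genes were near level in replicate 2.

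The 2 Ear genes were both lower in replicate 2, within 2-fold by counts. Ear2 (ENSMUSG00000072596.4), read from its only deposited transcript, had 627 and 306 TPM in replicates 1 and 2, a mean of 466 ± 227 (SD, n = 2). Its counts of 3786 and 2588 gave a level 1.86-fold lower in replicate 2 (interval 1.77 to 1.96). Ear1 (ENSMUSG00000072601.4) had 188 and 81.0 TPM, a mean of 134 ± 75.3 (SD, n = 2). Its counts of 797 and 677 gave a level 1.50-fold lower (interval 1.35 to 1.66), while its TPM was 2.32-fold lower. Ear2 exceeded Ear1 in both libraries, 3.34-fold in replicate 1 and 3.78-fold in replicate 2.

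Summed, Ear1 and Ear2 held 814 TPM in replicate 1 and 387 TPM in replicate 2, a mean of 601 ± 302 (SD, n = 2). The summed counts were 4583 and 3265, which is 1.79-fold lower in replicate 2 (interval 1.71 to 1.87). The summed counts do not depend on how reads were divided within the pair, but other copies remain. The summed TPM does depend on it, through the lengths of the transcripts the reads were assigned to. Of all 50-base windows of Ear1-201, 57.4% also occurred in a transcript of another gene, most often the pseudogene Ear-ps9, and of Ear2-201 41.5% did, most often Ear10. At 100 bases the shares were 23.9% and 13.9%. Ear-ps9 and Ear10 had 0 counts in both libraries, so by the authors' division no read went to them. The authors' posterior SD of the gene count was at most 0.64 counts for Ear1 and Ear2, which covers the division of reads in their model and not the spread between libraries.

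Marco and Msr1 differed between the libraries in opposite directions and changed places. Marco (ENSMUSG00000026390.3, chr1:120474538-120505024, minus strand), the macrophage receptor with collagenous structure, had 1.70 TPM in replicate 1 and 17.3 TPM in replicate 2, a mean of 9.49 ± 11.0 (SD, n = 2). It rested on 28 counts in replicate 1 (exact Poisson interval 18.6 to 40.5) and 475 in replicate 2, a 13.1-fold higher level in replicate 2 (interval 9.09 to 20.3). Msr1 (ENSMUSG00000025044.11, chr8:39581685-39642673, minus strand), which codes for scavenger receptor A, had 8.49 and 2.07 TPM, a mean of 5.28 ± 4.54 (SD, n = 2). Its counts of 296 and 113 gave a level 3.33-fold lower in replicate 2 (interval 2.68 to 4.18). Msr1 exceeded Marco 4.99-fold in TPM in replicate 1, and Marco exceeded Msr1 8.35-fold in replicate 2.

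Mrc1 (ENSMUSG00000026712.3, chr2:14229392-14332057, plus strand) codes for the mannose receptor CD206, which interstitial macrophages and lymphatic endothelium also make. It had 118 TPM in replicate 1 and 19.7 TPM in replicate 2, a mean of 68.8 ± 69.4 (SD, n = 2). Its counts of 3404 and 1174 gave a level 3.69-fold lower in replicate 2 (interval 3.46 to 3.95), and its TPM was 5.97-fold lower. Its mean transcript length went the same way as that of Chil1, with 2764 bases in replicate 1 and 3954 bases in replicate 2. By rank Mrc1 was gene 1058 in replicate 1 and gene 4863 in replicate 2.

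The genes for the surface proteins by which alveolar macrophages are sorted had low mRNA levels in whole lung. Siglecf (ENSMUSG00000039013.12, chr7:43351341-43359531, plus strand), a sialic acid-binding receptor also found on eosinophils, had 19.8 and 8.30 TPM in replicates 1 and 2, a mean of 14.1 ± 8.15 (SD, n = 2). Its counts of 514 and 304 gave a level 2.15-fold lower in replicate 2 (interval 1.87 to 2.49), and with scaling by total counts the log2 ratio was −0.84, within 2-fold. Itgax (ENSMUSG00000030789.8, chr7:128129547-128150657, plus strand), the integrin αX chain that dendritic cells also carry, had 5.46 and 10.6 TPM, a mean of 8.05 ± 3.66 (SD, n = 2). Its counts of 236 and 648 gave a 2.15-fold higher level in replicate 2 (interval 1.85 to 2.51). Siglecf therefore exceeded Itgax 3.63-fold in TPM in replicate 1, and Itgax exceeded Siglecf 1.28-fold in replicate 2.

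Plet1 (ENSMUSG00000032068.10, chr9:50494525-50505482, plus strand), which codes for a lipid-anchored surface protein, was the steadiest of the 10 genes. It had 53.9 TPM in replicate 1 and 48.9 TPM in replicate 2, a mean of 51.4 ± 3.58 (SD, n = 2). Its counts of 907 and 1147 gave a scaled ratio of 0.992 (interval 0.909 to 1.08), an interval that includes 1. Plet1os, an antisense gene that overlaps Plet1, had 2 and 4 counts.

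By the ratio of TPM, 1 of the 10 genes (Marco) was more than 2-fold higher in replicate 2 and 5 (Ear1, Ear2, Msr1, Mrc1 and Siglecf) were more than 2-fold lower. By the same ratio 69.2% of all tested genes were more than 2-fold apart in either direction. In TPM 7 genes were lower and 3 higher in replicate 2. The shares of all tested genes lower or higher in TPM were not counted, so this lean is not read as a trait of the set. TPM is a share of a fixed total, and the 5 epithelial markers measured held 17987 and 214016 of it in replicates 1 and 2. Nearly all of that was Scgb1a1, at 17498 and 174257 TPM, and Sftpc, at 287 and 39612 TPM. Foxj1 was also higher, at 0.11 and 42.8 TPM, while Cdh1 had 163 and 70.2 TPM and Epcam 38.6 and 33.65 TPM. The part that this change of the sum has in the members' TPM was not tested.

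The ratios of the 10 genes lay in the order of their GC content to a large extent. Mrc1, Msr1, Ear2 and Ear1, at 39.6%, 42.2%, 44.1% and 44.7% GC (mean over the annotated transcripts), were lower in replicate 2, and Itgax, Chil1 and Marco, at 50.1%, 52.5% and 55.9%, were higher. Chil3 at 46.5% was also lower, and its log2 ratio of −0.77 lay below the −0.58 of Ear1, a small break of the order. Plet1 at 48.7% lay between, at −0.01, and Siglecf at 51.5% broke the order further, at −1.11. Over the 10 genes Pearson's r between GC content and the log2 ratio was 0.847 and Spearman's rho was 0.806. Over 14067 tested genes with a GC value Spearman's rho was 0.820. Points within a correlation share both libraries, and these values are descriptions.

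**Figure D1:**
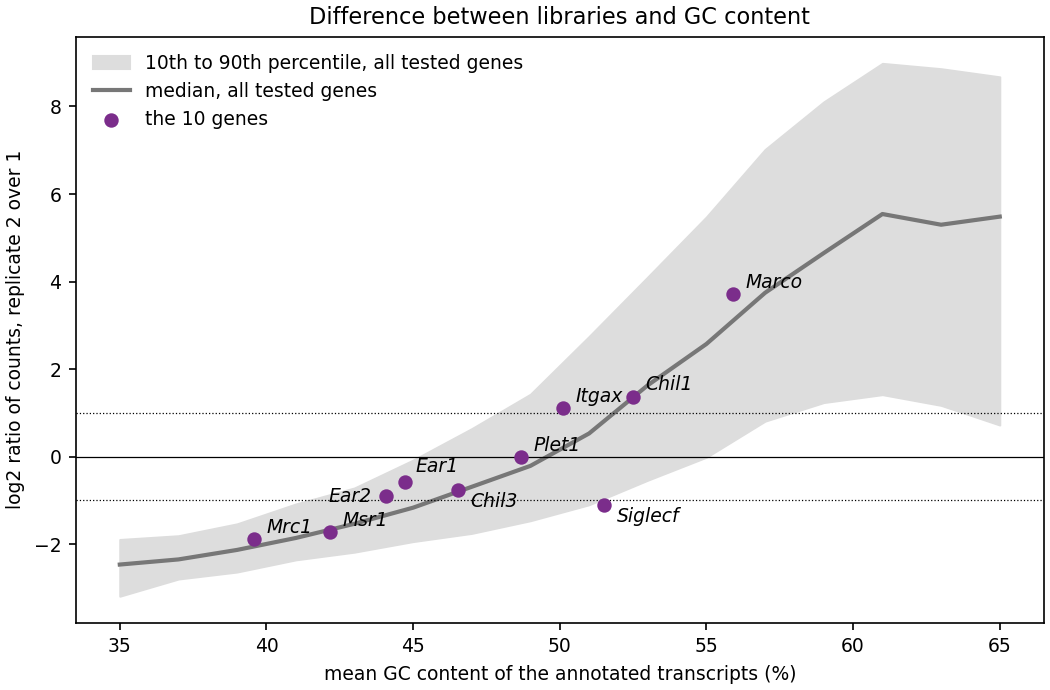
Log2 ratio of counts, replicate 2 over 1, against mean GC content of the annotated transcripts (%), for the 10 genes (points) over the median (line) and the 10th to 90th percentile (band) of all tested genes in classes of GC content; dotted lines mark 2-fold. Siglecf, at −1.11, is the point at the lower edge of the band, and the other 9 lie inside it.

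Set beside tested genes of like GC content (within 1 percentage point), 9 of the 10 genes lay between the 10th and 90th percentile of the ratio. That band holds 80% of such genes by construction, so 9 of 10 is near its share. Chil3, at a log2 ratio of −0.77, stood beside a median of −0.80 over 1486 such genes. Chil1, at 1.37, stood beside a median of 1.37 over 1616 genes, and Marco, at 3.71, beside 3.07 over 1491 genes. Mrc1, at −1.89, stood beside −2.04 over 395 genes and Msr1, at −1.74, beside −1.65 over 859 genes.

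Siglecf was the gene outside that band. Its log2 ratio of −1.11 was at percentile 7.78 of 1619 genes of like GC content, whose median was 0.83. Taking the GC content of its main transcript alone (49.8%) put it at percentile 8.40, beside a median of 0.26 over 1453 genes. With the trend on GC content subtracted, the median log2 ratio of the 10 genes was 0.18, and 4 genes changed sign, Mrc1 from −1.89 to 0.14, Ear1 from −0.58 to 0.58, Ear2 from −0.90 to 0.40 and Plet1 from −0.01 to 0.22. GC content moves with the ratios of this set and of all genes, and its part in them was not tested.

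The deposited transcript tables showed that Chil1, Mrc1 and Ear1 were also read from different transcripts in the 2 libraries. Of the 10 genes, 8 have at least 2 deposited transcripts, and 3 of these 8 changed their main transcript. That is near the 34.1% of 9696 genes with at least 2. The mean transcript length was over 10% shorter in replicate 1 for 4 of the 8 (Chil1, Mrc1, Ear1 and Marco), against 23.8% of all such genes, and longer for 0 of the 8, against 15.7%. The difference of Marco rests on 0.64 expected counts of its short transcript Marco-202 in replicate 1. Shares below are the authors' estimated percent of a gene's abundance held by a transcript.

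**Figure D2:**
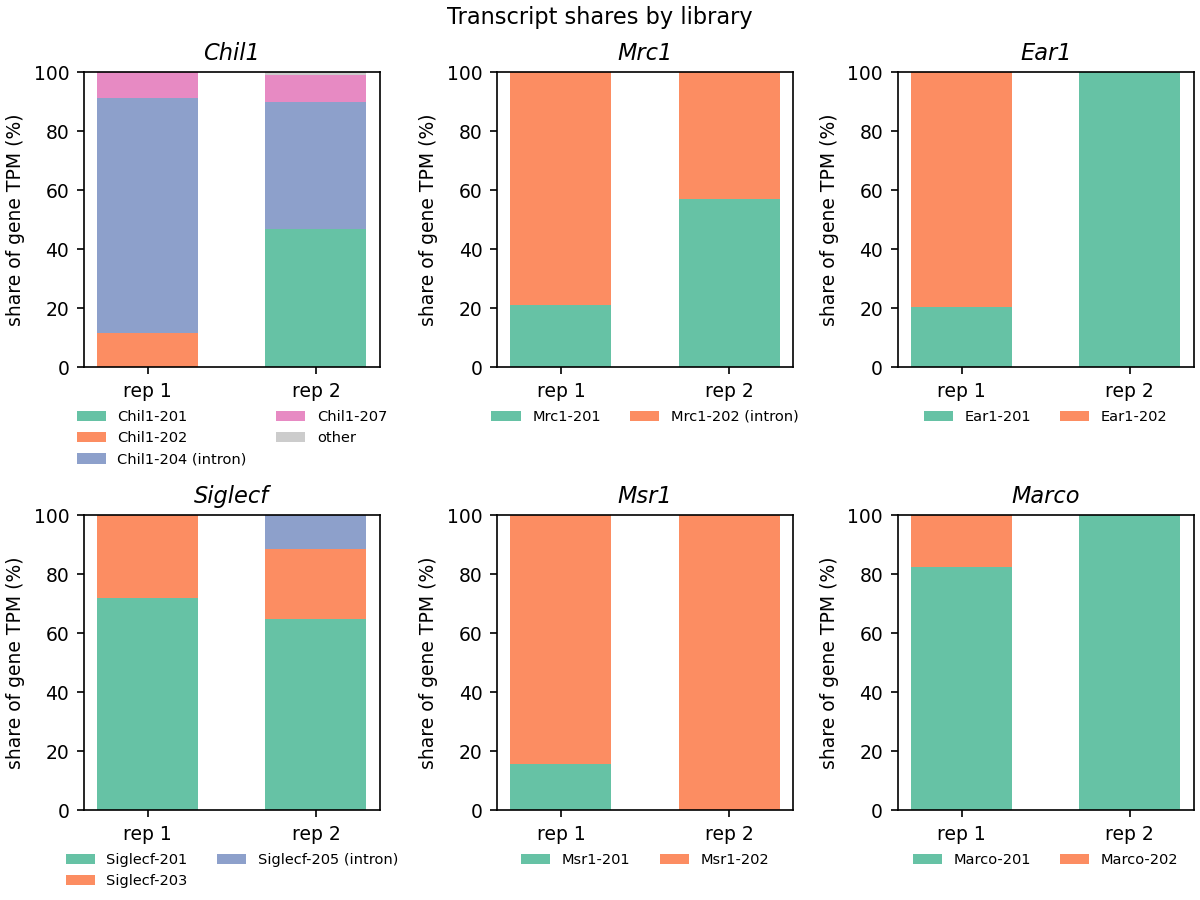
Percent of each gene's TPM held by its transcripts in replicate 1 and replicate 2, for the 6 genes with a transcript share of at least 10% outside their most abundant transcript; "intron" marks transcripts annotated with a retained intron. Mrc1-202 holds 79.0% in replicate 1 and 43.0% in replicate 2, and Ear1-202 holds 79.6% and 0%.

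Chil1 was read mostly from a short transcript in replicate 1. Chil1-204, a retained-intron transcript of 735 bases that covers exons 9 and 10 of the 10 exons of Chil1-201 and 71 intronic bases, held 79.8% of the gene in replicate 1 and 42.9% in replicate 2. The full-length coding transcript Chil1-201, of 1687 bases, had 0 expected counts in replicate 1 and 10330 in replicate 2, where it held 46.9%. Chil1-207, a coding form of 1839 bases with the same exons 1 to 9 and a longer exon 10, held 8.71% and 9.20%. Its counts were 1114 and 2234, so a full-length form was assigned reads in replicate 1 too. The division between these near-identical forms is the authors' estimate. Chil1-202, of 585 bases over the upstream exons, held 11.5% in replicate 1 and 0% in replicate 2. The counts given to Chil1-204 were 3422 in replicate 1 and 3474 in replicate 2, so most of the difference in counts of Chil1 was assigned to Chil1-201.

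Mrc1 showed the same kind of split at the 3′ end of a far longer gene. Mrc1-202, a retained-intron transcript of 2069 bases, starts 96.6% of the way along the gene, touches exons 28 to 30 of the 30 exons of Mrc1-201, and lies in introns of Mrc1-201 for 997 bases (48.2%). It held 79.0% of the gene in replicate 1 and 43.0% in replicate 2. The coding transcript Mrc1-201, of 5374 bases, held 21.0% and 57.0%. The counts of Mrc1-201 were 1438 and 922, which is 1.99-fold lower in replicate 2 after scaling, and those of Mrc1-202 were 1966 and 252, which is 9.92-fold lower. Of these 2 transcripts the one richer in A and T differed more, at a GC content of 35.8% for Mrc1-202 and 43.4% for Mrc1-201. This did not hold for every gene. In Ear1 the counts of Ear1-202, at 45.3% GC, were 569 and 0, and those of Ear1-201, at 44.2% GC, were 228 and 677. The part of GC content in these differences was not tested.

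**Figure D3:**
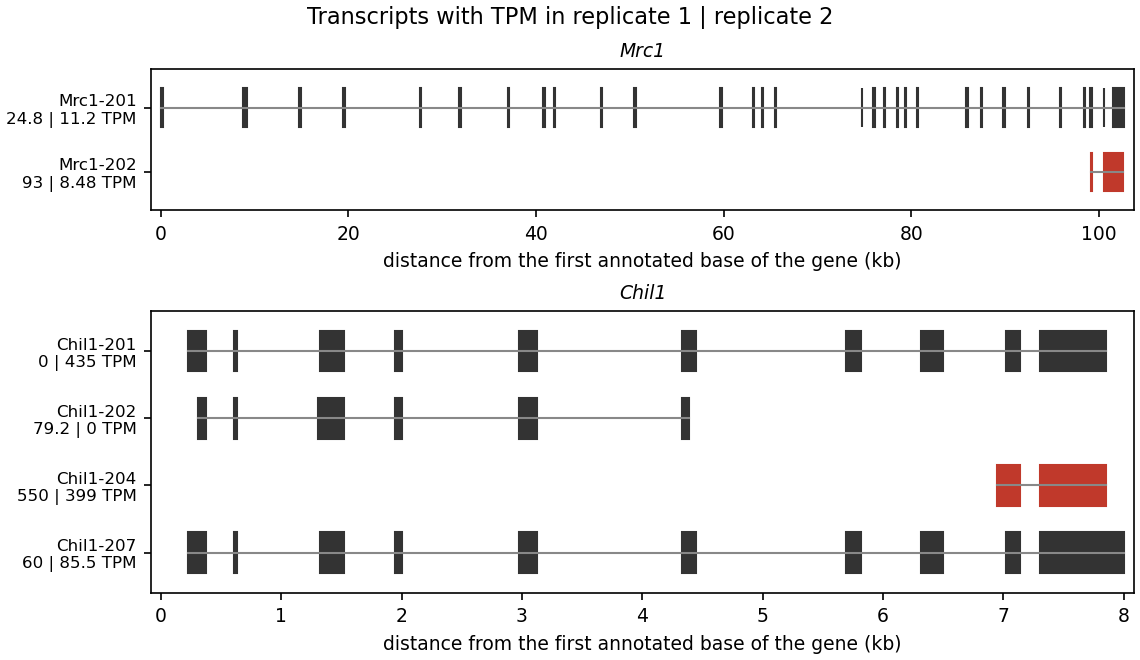
Exons (boxes) of Mrc1 and Chil1 transcripts by distance in kb from the first annotated base of the gene, with TPM in replicate 1 and replicate 2 beside each name for transcripts with at least 5% of their gene in either library, retained-intron forms in red. Mrc1-202 and Chil1-204, in red, lie at the 3′ end, and Mrc1-202 has 93.0 and 8.48 TPM while Mrc1-201 has 24.8 and 11.2 TPM.

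Ear1 was assigned to different transcripts too. Ear1-202, of 519 bases, held 79.6% in replicate 1 and 0% in replicate 2, and Ear1-201, of 713 bases, held 20.4% and 100%. Marco-202, of 370 bases, took 17.4% of Marco in replicate 1 on only 0.64 expected counts, and Marco-201 took the rest in replicate 1 and 100% in replicate 2. Msr1-202 held 84.2% and 100%, and Msr1-201 held 15.8% and 0%. Siglecf was divided alike in both libraries, with 71.8% and 64.7% in Siglecf-201 and 28.2% and 23.6% in Siglecf-203, although Siglecf-205, a retained-intron form, took 0% and 11.6%. Chil3-201 and Plet1-201 held at least 98.1% of their genes in either library.

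The nearest relatives of the set were mostly less abundant. Of 8 other chitinase family genes 4 reached a mean of 1 TPM. Of these, 1 was more than 2-fold higher and 1 more than 2-fold lower in replicate 2, against 39.3% and 28.2% of all tested genes. Chia1, the acidic chitinase, which does cleave chitin, led the family genes outside the set with 54.4 and 65.7 TPM in replicates 1 and 2. Ctbs, a lysosomal chitobiase, had 22.8 and 7.04 TPM, and Chid1 had 1.54 and 13.6 TPM. Chil4, the near copy of Chil3, had 1 count in each library, against the 26858 and 20016 of Chil3. Of the 50-base windows of Chil3-201, 29.4% recur in another gene, so most of the transcript can be told from its copies. Chit1, the other true chitinase, had 0 counts in both libraries, where the limit of 3 counts corresponds to 0.186 and 0.175 CPM, a count scaled to the library total.

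**Figure D4:**
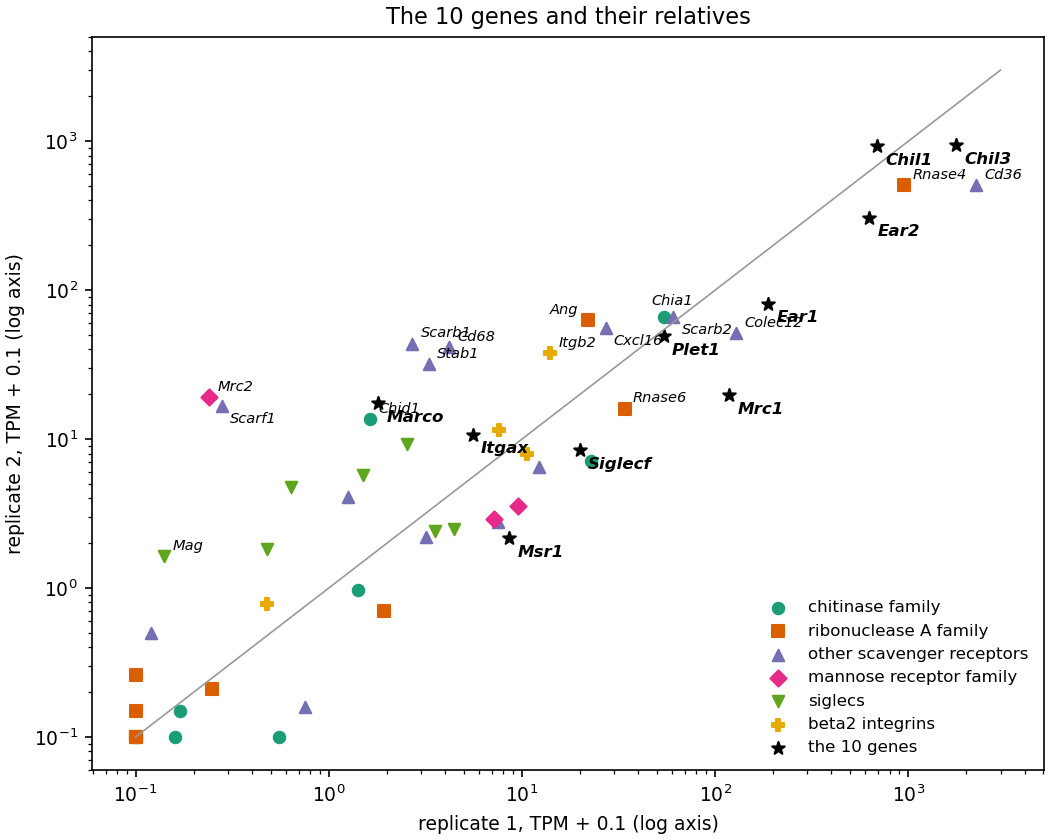
TPM + 0.1 in replicate 1 (x) against replicate 2 (y), both on log axes, for the 10 genes (stars) and the other genes of 6 related families; the line marks equal values. Chil3, Chil1 and Ear2 lie at the upper right with Rnase4 and Cd36, while Mrc2 and Scarf1 are examples of relatives far above the line.

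Of 11 other genes of the ribonuclease A family 4 were tested. In replicate 2, 1 of them was more than 2-fold higher and 1 more than 2-fold lower, against 39.3% and 28.2% of all tested genes. Rnase4 exceeded both Ear genes with 955 and 507 TPM. Ang, which codes for angiogenin, had 21.8 and 63.1 TPM, and Rnase6 had 34.0 and 15.9 TPM. Ear6 was the only other Ear gene tested, at 1.84 and 0.60 TPM.

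Among 12 tested scavenger receptors outside the set, 5 were more than 2-fold higher and 3 more than 2-fold lower in replicate 2. Both shares are near the 39.3% and 28.2% of all tested genes. Cd36, a fatty acid and lipoprotein receptor that lung endothelium also makes, had 2232 and 507 TPM, and Colec12 had 128 and 51.5 TPM. Scarb2, a lysosomal membrane protein, had 60.5 and 66.0 TPM. The relatives of Mrc1 differed in both directions, with Mrc2 at 0.14 and 19.0 TPM, Pla2r1 at 9.46 and 3.45 TPM and Ly75 at 7.10 and 2.79 TPM.

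Siglecf was more than 2-fold lower in replicate 2, whereas of 6 other tested siglecs 4 were more than 2-fold higher in replicate 2 and 0 more than 2-fold lower, against 39.3% and 28.2% of all tested genes. The siglecs had a median GC content of 53.3%, and their median log2 ratio of 2.15 became −0.37 with the GC trend subtracted, against −1.94 for Siglecf. Cd22, of B cells, had 2.43 and 9.15 TPM, Siglecg had 1.41 and 5.61 TPM, and Cd33 had 4.34 and 2.38 TPM. Siglecf had a higher mean than any of them, at 14.1 TPM. Itgb2, the β2 chain that pairs with the product of Itgax, was higher in replicate 2 like Itgax, at 13.9 and 37.5 TPM. Of its other partners, Itgal had 7.55 and 11.5 TPM, Itgam 10.6 and 7.82 TPM, and Itgad 0.38 and 0.68 TPM.

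Other genes tied to alveolar macrophages were present, with ratios in both directions. Of 24 genes of GM-CSF signalling and alveolar macrophage identity, all were tested, with 12 more than 2-fold higher and 5 more than 2-fold lower in replicate 2, against 39.3% and 28.2% of all tested genes. Their median log2 ratio was 0.79, and it changed sign to −0.38 with the GC trend subtracted. Fabp4, a fatty acid carrier, had 460 and 478 TPM, Lpl, the lipoprotein lipase, 353 and 88.0 TPM, and Car4, a carbonic anhydrase, 127 and 223 TPM. Of 11 pan-macrophage genes 7 were more than 2-fold higher and 0 more than 2-fold lower, with a summed level of 6432 and 12863 TPM. At a median GC content of 53.6%, their median log2 ratio was 1.15, and 0.15 with the GC trend subtracted. Lyz2, lysozyme of myeloid and alveolar epithelial cells, made up most of it, at 5716 and 11487 TPM.

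Markers of other cells that can express the 10 genes were also present. The 10 markers of interstitial macrophages and monocytes summed to 130 and 338 TPM in replicates 1 and 2, and of them C1qa had 3.95 and 97.1 TPM and Ccr2 67.5 and 13.2 TPM. The 7 dendritic cell markers summed to 47.2 and 44.8 TPM, and the 6 lymphatic endothelial markers to 443 and 369 TPM, with members in both directions, such as Lyve1 at 297 and 102 TPM and Ccl21a at 1.21 and 165 TPM. The 6 neutrophil markers summed to 1163 and 752 TPM, a difference set by S100a8 at 853 and 320 TPM. S100a9 had 247 and 343 TPM, and the median log2 ratio of the tested neutrophil markers was 0.55, opposite in sign to the difference of the sums. The 4 eosinophil markers summed to 3.79 and 1.45 TPM, with Epx, the eosinophil peroxidase, at 0 counts in both libraries, Prg2, the granule major basic protein, at 0 and 0.48 TPM and Ccr3, an eotaxin receptor, at 3.50 and 0.72 TPM. The part of the other cell types in the levels of the 10 genes was not tested.

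In RefSeq, 9 of the 10 genes had a promoter sequence. The core GAGGAA of the PU box, bound by PU.1, occurred on either strand within 250 bases before the start in 3 of the 9 (Marco, Mrc1 and Siglecf), against 23.4% of 32544 promoters, and TATAAA occurred in 1 (Plet1), against 12.3%. These matches are descriptions of the letters in the window.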

How the data were processed

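For each of the 2 libraries a gene table and a transcript table were used, made on assembly mm10 with annotation release M4 per the deposited descriptions. Which aligner and quantifier were used, and whether counting used strand, is not given in the sources used here. Their expected counts, as deposited by the authors, are estimated reads per gene in which shared reads are divided between genes. TPM and the percent of a gene held by each transcript were also deposited by the authors, as were intervals of the posterior mean TPM, whose level is not stated.

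Expected counts were rounded. Libraries were scaled with TMM in edgeR 4.0.16 (factors 0.913 and 1.10), and log2 ratios used a prior of 0.5 counts. Genes with a mean of at least 1 TPM were tested. GENCODE release M21 (GRCm38) gave symbols, positions and sequences, and 42462 of 43346 genes matched. A lowess curve (span 0.3) gave the GC trend. Coding parts were aligned globally with Biopython 1.88. Python 3.11.15 and R 4.3.3 were used.

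The members and gene lists were chosen with earlier results of these data known. Besides the 10 genes, the text names the 3 genes of highest mean TPM of a list, and genes whose likeness or defining role bears on a member. Libraries hold 16104442 and 17110882 counts. With 1 animal, the spread between libraries does not measure that between animals. Intervals and the limit for a count of 0 cover counting error only.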

Additional observations from a re-analysis of the deposited data

How the results depend on the processing

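The count of the 10 genes more than 2-fold higher in replicate 2 was 3 and that of lower genes 3. Both were 3 with DESeq2 size factors, with a prior of 5 counts and with no filter, and with total counts they were 3 and 2. In that order of settings, 67.8%, 65.8%, 70.0% and 64.8% of all tested genes were more than 2-fold apart. With the ratio of TPM, and likewise with posterior mean TPM, they became 1 higher and 5 lower. The share of all tested genes more than 2-fold apart was 69.2% and 66.0% in these settings. With the GC trend subtracted the counts became 0 higher and 1 lower (Siglecf), while that share passed from 67.5% in the main setting to 43.1%. With the GC content of the main transcript, an alternative chosen after seeing the data, they were 1 and 1, at a share of 34.6%. A filter at 10 TPM kept 7 of the genes, of which 1 was higher and 2 lower. At this filter 68.2% of 7696 genes were more than 2-fold apart. The log2 ratio of Mrc1 changed sign to 0.14 and 0.49 under these GC corrections, that of Ear1 (−0.58) to 0.58 and 0.34, that of Ear2 (−0.90) to 0.40 and 0.27, and that of Msr1 to 0.32 under the main transcript's. Over all settings 4 genes (Chil1, Marco, Siglecf and Itgax) kept 1 sign and 6 did not. Of the 4, Chil1 and Itgax came close to no difference, with lowest log2 ratios of 0.07 and 0.11. Of the 6, Chil3 passed from −0.77 to 0.22 with the GC content of the main transcript. Without replicate 1 or replicate 2 the summed TPM ranged from 2364 to 3477 around a mean of 2921. Depth limits Marco most, at 28 counts in replicate 1. No paired analysis was possible because the libraries form 1 group.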
